A study of Homo sapiens with 2 samples.

Results

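The genes described here build, mark and read chromatin: DNA methyltransferases and their partners, TET enzymes, polycomb proteins, enzymes and readers of heterochromatin, histone chaperones, deacetylases, demethylases and a few further chromatin proteins. They were chosen by function, but with earlier results of these data known, so counts set beside all measured genes are descriptions only. Every probe set that the platform's annotation assigned to exactly 1 of 37 listed genes was taken. Such a probe set existed for 36 of the 37 genes, with 91 probe sets in all, of 54675 on the array and of 19775 genes named by at least 1 probe set. BMI1, a polycomb RING finger protein, had no probe set of its own, and 2 probe sets shared by a listed gene and another gene were left out.

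RNA came from MDA-MB-231, a long-established cell line from a breast cancer without hormone receptors or amplified ERBB2, 48 h after transfection with a control siRNA or with siRNA against KMO, which encodes the kynurenine pathway enzyme kynurenine 3-monooxygenase. Both cultures shared the line, the medium and the transfection reagent, and each was measured on 1 Affymetrix U133 Plus 2.0 array. The titles name siRNA, but the array names hold the strings shLUC and shK421, which read like short hairpins, and which was used was not settled. With 1 array per condition there was no replicate, no test was possible, and each difference below describes this pair of arrays.

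Values are levels after RMA, in log2 units, so that a difference of 1 is 2-fold; differences are KMO siRNA minus control siRNA. RMA values have no true zero, so a gene with little or no RNA still shows a low value. A gene was represented by its probe set with the highest mean and was called measured where that mean was at least 6. This left 8997 genes, of which 33 were members; DNMT3A, TET1 and TET2 lay under the minimum.

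When a cell copies its DNA, it also has to copy what the DNA carries. DNA methylation is restored on the new strand, parental histones are redistributed, new histones are made, carried to the fork and deposited, and marks of silent chromatin such as methylated histone H3 are written again. Several genes of this work are known targets of the E2F transcription factors and reach their highest RNA levels around S phase, whereas other chromatin enzymes are made throughout the cycle.

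Both arrays carried the usual MDA-MB-231 signature only in part. The 10 genes that are usually high in this line, such as vimentin (VIM) and CD44, were all measured, at levels from 9.76 to 12.90 in the control array and from 9.84 to 12.96 in the KMO siRNA array. Of 14 genes usually low or silenced in the line, 10 were measured, with a median difference of -1.11. Of these 10, 9 were lower in the KMO siRNA array, against 44.1% of all measured genes, and 6 by at least 2-fold, against 1.39%. The levels of the 14 ranged from 2.34 to 10.54 and from 2.15 to 8.62. E-cadherin (CDH1), whose silencing is a known feature of this line, stood at 10.54 and 8.62, a difference of -1.92, and its level goes against the label. The part of these 14 genes in the differences described here was not tested. Of the leukocyte, endothelial, fibroblast and unrelated-tissue markers, COL1A1 alone was measured. The 3 probe sets of KMO stood between 2.11 and 2.95 on both arrays, in the range of the unrelated-tissue genes, so the knockdown could not be checked. The difference between 3′ and 5′ probe sets of ACTB, a sign of RNA integrity, was 0.39 for control siRNA and 0.33 for KMO siRNA.

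Most of the chromatin genes were higher in the KMO siRNA array. Of 33 measured members, 27 were higher and 6 lower, where 54.8% of all measured genes were higher and 44.1% lower. A level at least 1.5-fold higher was seen for 7 members, against 5.19% of all measured genes, and one at least 1.5-fold lower for 0 members, against 5.41%. The 7 were UHRF1, CHAF1B, CHAF1A, HELLS, SUV39H1, SUV39H2 and HAT1. UHRF1 alone was at least 2-fold higher, a size reached by 0.856% of measured genes, and 0 members were 2-fold lower, against 1.39%. The median difference over the members was 0.29, and over all measured genes it was 0.04. HAT1 lay just inside the 1.5-fold line at 0.60, and EED, CBX5 and DNMT1 lay just outside it at 0.56, 0.55 and 0.54. With differences centred on the median of all measured genes, HAT1 fell short of the line and 6 members passed it.

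**Figure D1:**
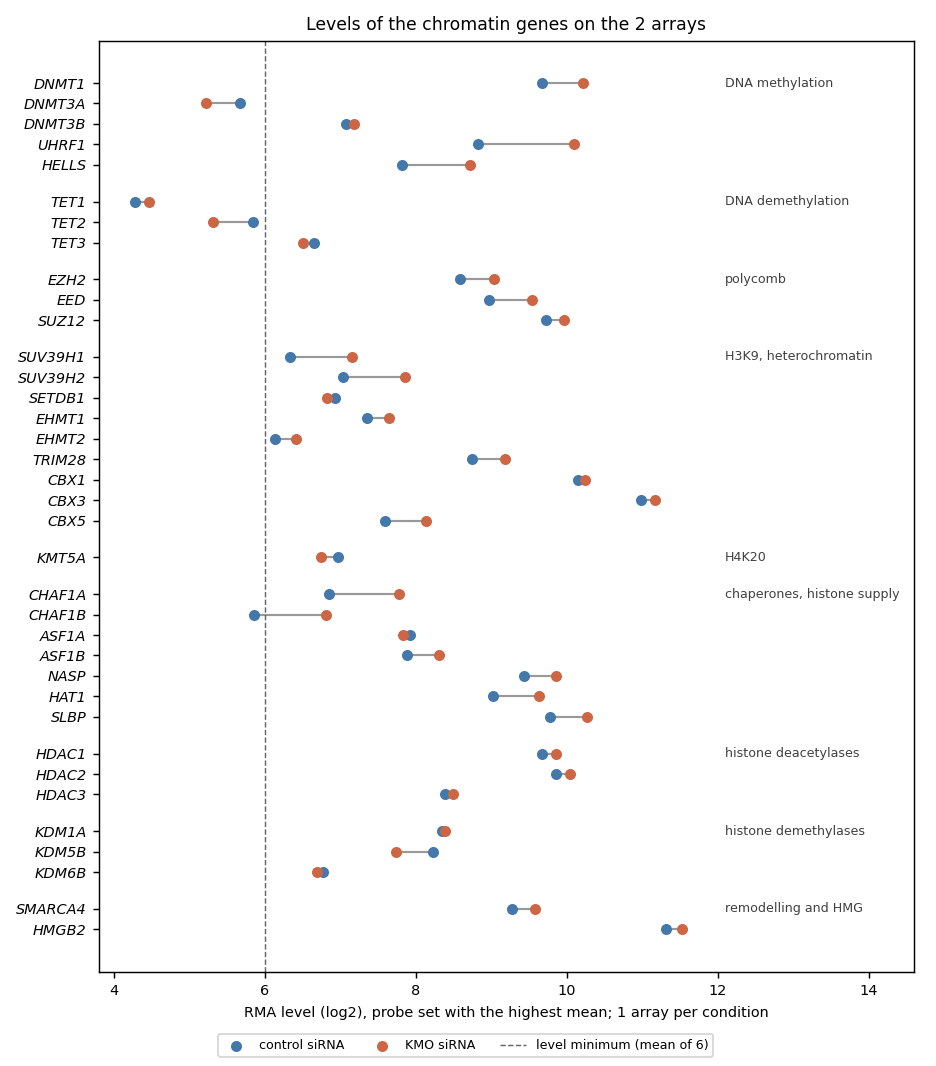
Level of each chromatin gene with a probe set, on the log2 RMA scale along the x axis, in the control siRNA array (blue) and the KMO siRNA array (orange), 1 array each, grouped by role; the dashed line marks the level minimum of 6. UHRF1 shows the widest gap, from 8.83 to 10.09, and KDM5B is the measured gene displaced farthest to the left, from 8.22 to 7.74.

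Cell cycle genes differed in the same direction. In the G1/S list all 29 measured genes had the higher level in the KMO siRNA array, 25 of them by at least 1.5-fold, with a median difference of 0.85, among them CCNE2 at 1.73, MCM5 at 1.42 and GINS3 at 0.93 or more (control level under 6). Genes of G2 and mitosis were higher in 21 of 24 measured cases, 1 of them by 1.5-fold, with a median of 0.16 and BIRC5 at 0.60. Over all measured genes, 54.8% were higher, 5.19% by at least 1.5-fold, and the median was 0.04. At 1.5-fold higher the share was 86.2% in the G1/S list and 4.17% in the list of G2 and mitosis. The part of the cell cycle genes in the differences described here was not tested. In bulk RNA, a larger share of cells in one phase and more RNA per cell cannot be told apart.

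The promoters of the 7 members that were at least 1.5-fold higher are shown, picked by that size on this pair of arrays and not by a motif. Each line gives 250 bases before the annotated start and 50 from the start on, 5′ to 3′ on the gene's strand, from RefSeq's GRCh38.p14, and where a gene had several windows (UHRF1 and SUV39H1) the first listed. Capitals mark matches, on either strand, to an E2F motif spelled TTTCCCGC, TTTCGCGC, TTTGCCGC or TTTGGCGC, or to a second spelling, GGCGGGAA, added after the first matches were seen.
UHRF1, chr19:4909251-4909550, plus strand: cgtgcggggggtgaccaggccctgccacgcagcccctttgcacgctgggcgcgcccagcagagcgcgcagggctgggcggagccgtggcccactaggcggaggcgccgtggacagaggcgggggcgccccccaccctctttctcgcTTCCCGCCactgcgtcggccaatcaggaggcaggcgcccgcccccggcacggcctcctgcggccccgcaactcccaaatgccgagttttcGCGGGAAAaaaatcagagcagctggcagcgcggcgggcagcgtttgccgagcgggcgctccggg
HELLS, chr10:94545538-94545837, plus strand: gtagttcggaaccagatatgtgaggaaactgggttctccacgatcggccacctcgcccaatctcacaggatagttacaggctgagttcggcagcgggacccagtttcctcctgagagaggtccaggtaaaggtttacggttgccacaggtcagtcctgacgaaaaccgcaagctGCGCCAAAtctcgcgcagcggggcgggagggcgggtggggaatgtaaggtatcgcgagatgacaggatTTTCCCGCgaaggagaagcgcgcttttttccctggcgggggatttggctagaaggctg
CHAF1A, chr19:4402390-4402689, plus strand: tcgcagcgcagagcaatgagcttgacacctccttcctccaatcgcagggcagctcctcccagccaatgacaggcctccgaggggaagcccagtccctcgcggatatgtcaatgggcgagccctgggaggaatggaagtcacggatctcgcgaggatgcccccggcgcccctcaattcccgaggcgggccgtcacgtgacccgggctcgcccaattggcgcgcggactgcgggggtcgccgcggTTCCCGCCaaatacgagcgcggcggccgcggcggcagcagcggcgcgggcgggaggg
CHAF1B, chr21:36385142-36385441, plus strand: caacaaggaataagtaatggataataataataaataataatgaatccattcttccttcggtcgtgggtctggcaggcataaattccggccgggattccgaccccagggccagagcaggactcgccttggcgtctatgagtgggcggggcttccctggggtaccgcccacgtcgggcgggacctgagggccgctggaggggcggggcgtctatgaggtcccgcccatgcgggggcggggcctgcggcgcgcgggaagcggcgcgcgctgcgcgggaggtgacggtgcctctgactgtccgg
SUV39H1, chrX:48695304-48695603, plus strand: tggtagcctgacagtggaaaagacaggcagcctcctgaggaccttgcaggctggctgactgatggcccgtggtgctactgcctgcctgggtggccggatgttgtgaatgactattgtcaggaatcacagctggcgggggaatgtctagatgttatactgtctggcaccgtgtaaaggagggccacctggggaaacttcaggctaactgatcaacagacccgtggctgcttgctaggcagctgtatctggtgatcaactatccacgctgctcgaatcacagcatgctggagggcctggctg
SUV39H2, chr10:14878616-14878915, plus strand: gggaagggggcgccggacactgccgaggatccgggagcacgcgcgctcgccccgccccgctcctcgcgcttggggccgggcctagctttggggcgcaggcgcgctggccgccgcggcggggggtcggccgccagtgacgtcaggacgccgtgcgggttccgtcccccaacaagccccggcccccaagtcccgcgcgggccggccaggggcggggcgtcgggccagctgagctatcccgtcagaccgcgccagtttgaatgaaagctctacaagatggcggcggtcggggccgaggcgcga
HAT1, chr2:171922211-171922510, plus strand: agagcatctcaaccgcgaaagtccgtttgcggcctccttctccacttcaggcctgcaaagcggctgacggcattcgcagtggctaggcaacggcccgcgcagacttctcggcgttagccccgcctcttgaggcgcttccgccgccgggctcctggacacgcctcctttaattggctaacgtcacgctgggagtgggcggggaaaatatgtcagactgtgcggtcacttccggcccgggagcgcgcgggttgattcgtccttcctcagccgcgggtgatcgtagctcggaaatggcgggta

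UHRF1 held a match 14 to 7 bases before its start and a match to the second spelling farther upstream, from 104 to 97 bases before it. HELLS held 2 matches, the nearer ending 1 base before the start. CHAF1A held only the second spelling, beside its start. The printed windows of CHAF1B, SUV39H1, SUV39H2 and HAT1 held neither spelling, which says only that these letters are not in these windows.

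Windows existed for 35 of the 37 genes, 55 windows in all. Over the 31 measured members with a window, 7 of 42 windows (16.7%) held the first E2F spelling, compared with 5.21% of 11077 windows of measured genes, 3.31% of all 35116 windows and 17 of 34 windows (50.0%) of measured G1/S genes. The second spelling stood in 2 of the 42 windows (4.76%), in 4.96% of windows of measured genes and in 3.16% of all windows. Beside UHRF1 and HELLS, the first spelling was found at the start of DNMT1, EZH2 and CBX3 and from 189 to 182 bases before that of SUZ12. Members with a match to the first spelling differed by between 0.18 and 1.26. Those with a window but no such match ran from -0.49 (KDM5B) to 0.96 (CHAF1B, control level under 6). A link between the motif and the differences was not tested. The CCAAT box, the motif of the factor NF-Y, was in 19 of 42 windows (45.2%), against 35.4% of windows of measured genes and 34.6% of all windows. The CHR motif of cell cycle genes, TTTGAA, was in 3 of 42 (7.14%), against 10.6% and 15.2%. All motifs were searched on both strands, the 2 E2F spellings can overlap each other, and a match in the sequence is a description and not a binding site.

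**Figure D2:**
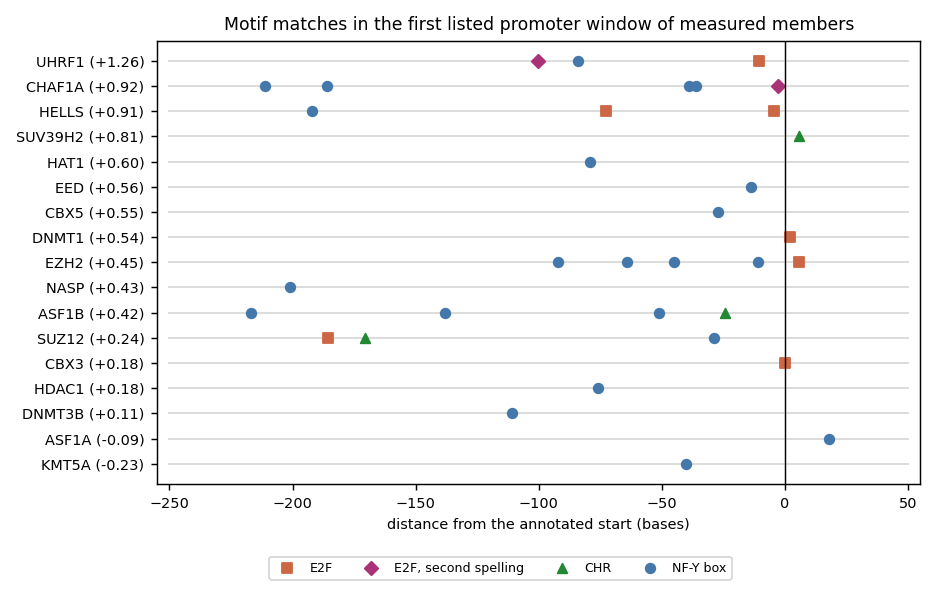
Position of motif matches along the first listed promoter window of each measured member that holds any; the x axis gives the distance from the annotated start in bases and the y axis the gene with its difference on the log2 scale. E2F matches lie near the start in UHRF1, HELLS, CHAF1A (second spelling only), DNMT1, EZH2 and CBX3, over differences from 0.18 to 1.26. Others lie farther upstream, from 189 to 182 bases before the start in SUZ12, 104 to 97 in UHRF1 (second spelling) and 76 to 69 in HELLS.

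The DNA methylation genes formed the role group with the highest median. Of 5 genes, 4 were measured, all 4 were higher and the median difference was 0.72. For this and the following counts by role group, 54.8% of all measured genes were higher, 5.19% by at least 1.5-fold. UHRF1 binds DNA methylated on one strand and brings in the maintenance methyltransferase. It stood at 8.83 in the control array and 10.09 in the KMO siRNA array, a 2.40-fold higher level, with 28 of the 8997 measured genes above it in difference. UHRF1 had 1 probe set, so no other probe set bears on that value. HELLS, a chromatin remodeller needed for methylation of repeats, stood at 7.82 and 8.72, 1.88-fold higher. All 5 of its probe sets were higher, by 0.58 to 0.94.

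DNMT1, the maintenance methyltransferase itself, stood at 9.67 and 10.21, which is 1.45-fold higher. DNMT3A and DNMT3B set methylation at new sites. DNMT3B stood at 7.07 and 7.18, a difference of 0.11. DNMT3A lay under the minimum with all 3 of its probe sets, whose differences ran from -0.45 to 0.10, so its direction was not settled. Among the measured methyltransferases the maintenance enzyme thus differed by 0.54 and the one for new sites by 0.11. Each had 1 probe set, whose name marks possible cross-matching (_s_at), so no other probe set bears on this contrast.

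TET enzymes oxidise methylated cytosine and so start its removal. TET3 was the measured one, at 6.65 and 6.51, a difference of -0.14, and its weaker probe sets gave -0.03 and 0.05. TET2 stood at 5.84 and 5.31 with its strongest probe set, under the minimum. Its other 2 probe sets differed by 0 and -0.14. TET1 had 2 probe sets under the minimum at 0.19 and -0.62, in opposite directions. None of the 3 TET genes was higher by 1.5-fold with any probe set, and no difference of TET1 or TET2 rests on a measured level.

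Polycomb repressive complex 2 methylates histone H3 at silenced developmental genes. Its 3 measured members EZH2, EED and SUZ12 were higher, with a median of 0.45, whereas its histone-binding subunit RBBP4, not among the listed members, differed by -0.62 and -0.52 with its 2 measured probe sets, and the RBBP4 paralog RBBP7 by 0.12. EZH2, the catalytic subunit, stood at 8.58 and 9.03, 1.37-fold higher. EED, which reads the mark the complex has written, stood at 8.98 and 9.54, 1.48-fold higher. SUZ12, its structural subunit, stood at 9.73 and 9.97, a difference of 0.24, while its other probe sets under the minimum gave 0.06 and -0.13. EZH2 had 1 probe set, and the second one of EED, at 2.42 and 3.21, was at background.

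Among heterochromatin genes 8 of 9 were higher, against 54.8% of all measured genes, with a median of 0.29, and the differences separated by enzyme. SUV39H1 and SUV39H2 are paralogous methyltransferases that write the mark of constitutive heterochromatin on histone H3. SUV39H1 stood at 6.33 and 7.15, and SUV39H2 at 7.03 and 7.85, which gave nearly equal folds of 1.77 and 1.76. SUV39H1 had 1 probe set. The second probe set of SUV39H2, at 4.50 and 5.69 and so under the minimum, was also higher, by 1.19. The near equality thus rests on the stronger probe set of SUV39H2. The other methyltransferases for the same residue differed less. EHMT1, which acts mainly in euchromatin, stood at 7.35 and 7.64 and differed by 0.29, with its 2 weaker probe sets at 0.09 and 0.56. Its partner EHMT2 stood at 6.13 and 6.40 and differed by 0.27, with weaker probe sets at -0.04 and 0.01. SETDB1, which silences transposons, was the 1 member of the group that was lower, at 6.92 and 6.82, and both of its probe sets were lower. TRIM28, the scaffold that recruits SETDB1, stood at 8.74 and 9.18, 1.35-fold higher.

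The HP1 proteins bind methylated histone H3, and their 3 genes differed by unequal amounts. CBX5 (HP1 alpha) stood at 7.59 and 8.13, 1.46-fold higher, and all 6 of its probe sets were higher, by 0.28 to 0.65. CBX1 (HP1 beta) stood at 10.15 and 10.25, a difference of 0.10. CBX3 (HP1 gamma) stood at 10.98 and 11.17, a difference of 0.18. Of the 3 measured probe sets of CBX3, 1 went the other way, at -0.17. Without the probe sets whose names mark possible cross-matching, that one represents CBX3, so its direction was not settled.

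KMT5A, the enzyme that places a single methyl group on histone H4, was lower with all 4 probe sets. Its strongest stood at 6.96 and 6.74, and the differences ran from -0.34 to -0.14. It differed in direction from the methyltransferases of histone H3 named above other than SETDB1.

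**Figure D3:**
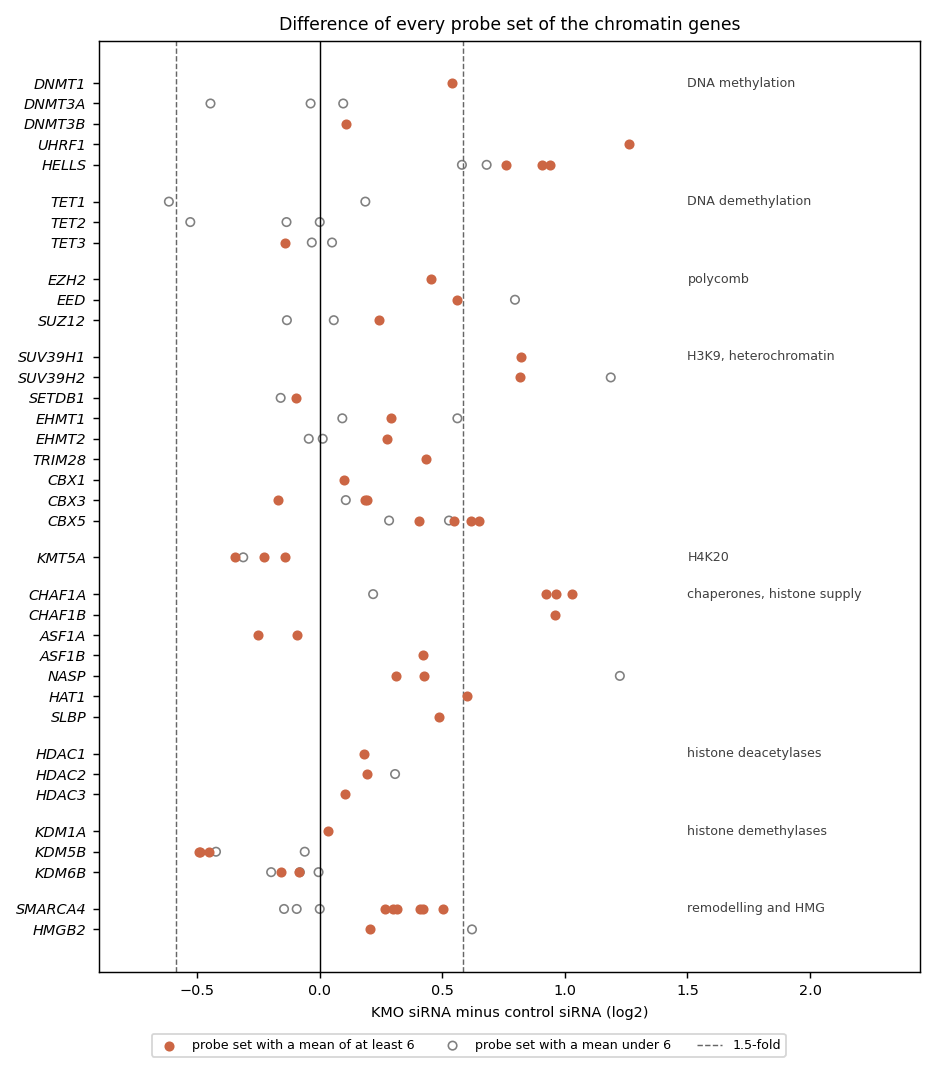
Difference between the KMO siRNA array and the control siRNA array on the log2 scale (x axis) for all 91 probe sets of the chromatin genes, 1 row per gene and 1 point per probe set; filled points reach a mean level of 6, open points do not, and dashed lines mark 1.5-fold. HELLS, CBX5 and CHAF1A show all their probe sets to the right of 0, and KDM5B, KDM6B and KMT5A show all of theirs to the left.

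Histone chaperones and histone supply held 3 of the 7 members at 1.5-fold, and 6 of 7 measured genes were higher, with a median of 0.49. CHAF1A and CHAF1B encode the subunits of chromatin assembly factor 1, which deposits histones H3 and H4 on newly copied DNA. CHAF1A stood at 6.85 and 7.77, 1.90-fold higher, and its 3 measured probe sets differed by 0.92 to 1.03. CHAF1B stood at 5.85 and 6.81. Its control level was under 6, so with 6 in its place it was at least 1.75-fold higher. Every measured probe set of both subunits was higher, whereas RBBP4, which is the histone-binding subunit here too, stood at 9.72 and 9.11 and was 1.54-fold lower.

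ASF1A and ASF1B are paralogous chaperones that hand new histones to the deposition complexes, and they went in different directions. ASF1B stood at 7.88 and 8.31, a difference of 0.42. ASF1A stood at 7.92 and 7.83, and its 2 probe sets differed by -0.09 and -0.25. NASP, which holds the soluble pool of H3 and H4, stood at 9.43 and 9.85, 1.34-fold higher, and all 3 of its probe sets were higher. HAT1, which acetylates newly made histone H4, stood at 9.03 and 9.63, 1.52-fold higher. SLBP, which binds the stem-loop of histone messenger RNAs and allows their translation, stood at 9.78 and 10.27, 1.40-fold higher. HAT1, SLBP, CHAF1B and ASF1B each had 1 probe set.

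The 3 deacetylases among the listed members, which remove acetyl groups from histones within corepressor complexes, differed little. HDAC1 stood at 9.68 and 9.86, HDAC2 at 9.85 and 10.05, and HDAC3 at 8.39 and 8.49. All 3 were higher in the KMO siRNA array, as were 54.8% of all measured genes. Their differences, from 0.10 to 0.19, were small beside those of CHAF1A and CHAF1B. They lay within the central 50% of all measured genes, from -0.17 to 0.25.

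Histone demethylases held the lowest measured difference of all members. KDM5B removes methyl groups that mark active promoters. It stood at 8.22 and 7.74, 1.40-fold lower, and its 3 measured probe sets lay between -0.49 and -0.45. All 5 probe sets were lower, and 673 of the 8997 measured genes had a lower difference. KDM6B, which removes the polycomb mark, stood at 6.77 and 6.69, and all 5 of its probe sets were lower, by 0.20 at most. KDM1A, a flavin-dependent demethylase of corepressor complexes, stood at 8.35 and 8.38, and its difference of 0.04 turned negative (-0.0042) when differences were centred on the median of all measured genes.

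SMARCA4, the ATPase of the SWI/SNF remodellers, stood at 9.27 and 9.57, 1.23-fold higher. Its 6 measured probe sets were all higher, by 0.27 to 0.50, and the 3 under the minimum gave between -0.15 and 0. HMGB2, a DNA-bending protein abundant in dividing cells, stood at 11.32 and 11.53, a difference of 0.21, with a weak probe set at 0.62.

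Counts were also taken over all probe sets in place of 1 per gene. At a mean level of 6 or more there were 54 member probe sets, 41 higher and 13 lower, beside 54.6% and 44.3% of the 14837 named probe sets at that level. At 1.5-fold, 13 of the 54 were higher, against 5.20% of all such probe sets, and 0 were lower, against 5.04%. At 2-fold, 2 of the 54 were higher (0.842% of all such probe sets) and 0 lower (1.21%). Probe sets of a gene share their transcript and are not independent. Of the 37 member probe sets under the minimum, 18 were higher (42.6% of all named probe sets under it), 17 lower (44.6%) and 2 identical on both arrays. At 1.5-fold, 5 of the 37 were higher, against 2.26%, and 1 lower, against 2.86%. Of 10 members with at least 2 measured probe sets, 9 had them all in one direction, compared with 72.5% of 3777 such genes on the array. CBX3 was the exception.

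Other chromatin genes were compared through 9 further lists. Beside the members' median of 0.29, the list medians ran from -0.12 to 0.17. For the counts below, 54.8% of all measured genes were higher and 44.1% lower, with 5.19% at least 1.5-fold higher. Of 20 measured further histone chaperones and their partners, 17 were higher, 5 of them by 1.5-fold, and the median was 0.15. HIRA, the chaperone that deposits histone H3.3 outside replication, stood at 6.52 and 7.64, 2.17-fold higher with its 1 measured probe set. IPO4, which imports histones, and OIP5, which helps load the centromeric histone, were 1.79- and 1.72-fold higher.

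Partners and readers of DNA methylation were higher in 12 of 16 cases with a median of 0.17, but the median was -0.10 over the 6 genes left without _x_at and _s_at probe sets, so the direction of the list was not settled. CDCA7, the protein that recruits HELLS to DNA, stood at 7.78 and 8.66, 1.85-fold higher, next to the 1.88-fold of HELLS itself. MBD3 and CDCA7L differed by 0.39 and 0.38. Of 14 measured SWI/SNF subunits beside SMARCA4, 13 were higher, 0 by 1.5-fold, with SS18 at 0.43, SMARCD1 at 0.40 (0.33 with its control level taken as 6) and SMARCC1 at 0.34. Histone acetyltransferases were higher in 6 of 9 cases, with KAT2A at 0.44, CREBBP at 0.38 and BRPF1 at 0.34.

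Other polycomb genes went both ways, 13 of 23 higher (56.5%, near the 54.8% of all measured genes). Their median of 0.03 turned to -0.01 with centred differences. PHF19, an accessory subunit of polycomb repressive complex 2, differed by 0.68 with its strongest probe set and by -0.06 with its lowest, RBBP4 by -0.62, and CBX7, a reader in polycomb repressive complex 1, by -0.54. Other histone and arginine methyltransferases were higher in 17 of 23 cases, but the 3 with the widest differences were lower: KMT5B, which adds further methyl groups to histone H4, at -0.60, SMYD3 at -0.50 and NSD3 at -0.39 (up to 0.19 with another probe set). Other demethylases were higher in 7 of 13 cases (53.8%), near the 54.8% of all measured genes. Their median was 0.09, or -0.10 over 19 genes with the median of all probe sets and no minimum. RIOX1 differed by 0.49, RIOX2 by 0.46 and KDM3A by -0.37.

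Other deacetylases and corepressors were lower in 12 of 22 cases and higher in 8, with a median of -0.12. HDAC5 stood at 7.02 and 6.18, 1.80-fold lower, HDAC9 at 7.42 and 8.17, 1.68-fold higher, and GATAD2A differed by 0.48. Other HMG and heterochromatin partners were higher in 11 of 19 cases (57.9%), near the 54.8% of all measured genes. LMNB1, the lamin B1 gene, stood at 6.84 and 8.06, 2.34-fold higher, HMGN4 at 10.76 and 9.83, 1.90-fold lower, and RIF1, a regulator of replication timing, differed by 0.89 with its strongest probe set and by 0.10 with its lowest.

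**Figure D4:**
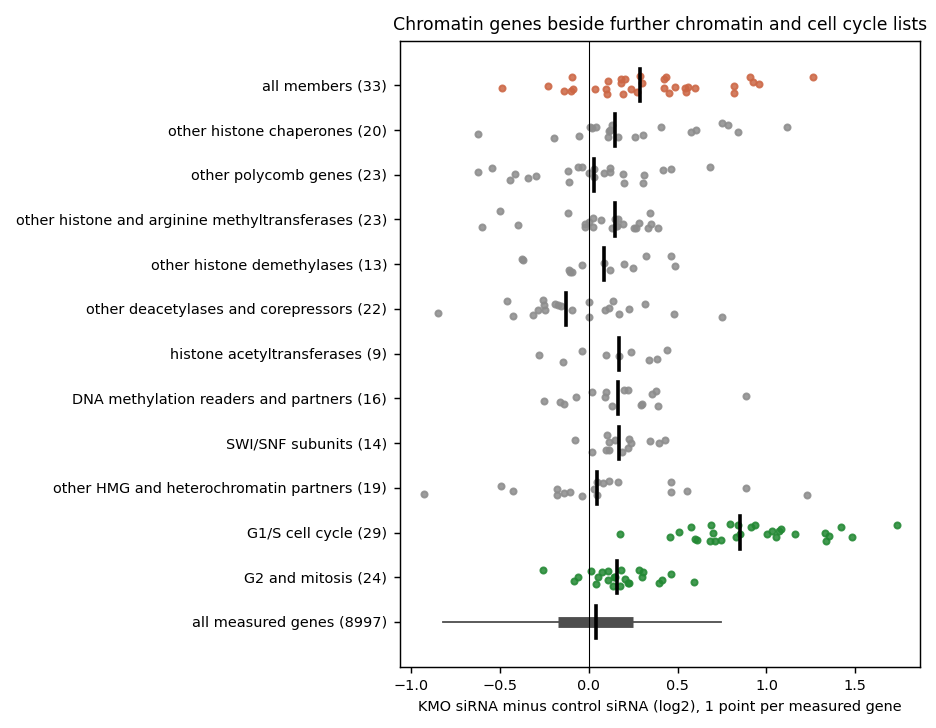
Difference between the KMO siRNA array and the control siRNA array on the log2 scale (x axis) for each measured gene of the chromatin members (orange), 9 further chromatin lists (grey) and 2 cell cycle lists (green), with the number measured in brackets; black bars are medians, and the bottom row gives the central 50% (thick) and 95% (thin) of all measured genes. The members' median of 0.29 lies between the 0.04 of all measured genes and the 0.85 of the G1/S genes.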

How the data were processed

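Gene expression was measured with biotin-labelled RNA on 2 Affymetrix U133 Plus 2.0 arrays, 1 per group, grouped by sample title. The authors deposited log2 values after robust multi-array averaging (RMA: background correction, quantile normalization and probe set summary), per the labels. Affymetrix Expression Console is named in the submitters' processing notes. Neither its version nor which arrays were normalized together is stated there. Quantile normalization removes shifts shared by all transcripts; array medians were 4.44 and 4.43. Probe sets were named through the platform annotation, updated by gene identifier against RefSeq (GRCh38.p14): 41097 had 1 gene (41043 matched by identifier), 1801 several and 11777, array controls included, were not listed.

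Differences, fold counts and medians were computed in Python 3.11.15 with pandas 2.3.3, after checks on simulated data; no test was possible with 1 array per group, and the number of arrays limits precision. A level under 6 was taken as 6 for lower bounds. All members were named, and of each of 11 further lists up to 3 measured genes with the widest difference. Members, role groups and lists were chosen with earlier results of these data known. The 9 alternatives varied the probe set rule, the level minimum (none, 5 or 7), probe sets of possible cross-matching (_x_at, _s_at), the floor, centring and a loess curve (statsmodels 0.14.6).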

Additional observations from a re-analysis of the deposited data

How the results depend on the processing

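The 27 to 6 balance and the members' median kept their direction under all 9 alternatives, with the median between 0.25 and 0.36. The count at 1.5-fold higher was between 5 and 8, over 21 to 36 members, where 2.61% to 5.66% of all genes in the setting reached it. With the median over all probe sets and no minimum, 2 of 36 members were 2-fold higher (UHRF1 and SUV39H2), against 0.415% of 19775 genes. SUV39H2 lay on the line at 1.0009, with its probe set under the minimum, at 4.50 and 5.69, included. Without _x_at and _s_at probe sets, 15 of 21 measured members were higher, against 53.6% of all genes measured in that setting. There the DNA methylation median was 1.09 over 2 genes and the polycomb median 0.24 over 1 gene. With a minimum of 7, 2 of 26 members were lower, against 43.5% of all genes measured in that setting, and the demethylase median was -0.23. The DNA methylation median was 0.54 with a minimum of 5, with none, and with the median over all probe sets, where DNMT3A enters; under the last the SMARCA4 and HMGB2 median was 0.36. Among the further lists, the medians of the DNA methylation partners, the other polycomb genes and the other demethylases turned sign under at least 1 alternative, and that of the other HMG and heterochromatin partners turned from 0.05 to -0.0024 with the loess curve. The cause of these sign changes was not tested. Of 278 member values under alternatives, 266 moved by less than 0.092, the median SD between probe sets of a gene, and 31 of 33 members kept 1 direction; CBX3 and KDM1A did not. No replicate gives the error between cultures, so none of these ranges is one. No paired analysis was possible because each group has 1 array.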
